A study of Homo sapiens with 6 samples.

Results

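The 8 genes described here make proteins that lengthen the peptide chain on the cytosolic ribosome, and 1 kinase that restrains 1 of them, eEF2. They are EEF1A1, EEF1A2, EEF1B2, EEF1D, EEF1G, EEF2, EEF2K and EIF5A. They were chosen by symbol, with earlier results of these data known, and are 8 of the 30726 gene symbols in the deposited table. RNA bound to polysomes (mRNA carrying several ribosomes) was taken from sucrose gradients of established breast cancer cells, 3 lines in all: the triple-negative SUM1315, the luminal HER2-positive SKBR3 and the luminal A line T47D, all labelled WT. Each line was grown under 21% oxygen, called normoxia here, or exposed to 1% oxygen for 8 hours, called hypoxia, and all cells received cycloheximide before collection, which holds ribosomes on mRNA. There was 1 library per line and oxygen level, so 6 libraries in all, and the lines were the only replication. The values are RPKM, that is, reads scaled to transcript length and to the size of the library. A gene with a higher value took a larger share of the polysome RNA sequenced. RNA from whole lysates was not analysed here, so more mRNA and more ribosomes per mRNA cannot be told apart. The p-values per gene for hypoxia rest on the spread between 3 lines that differ in subtype. That spread was estimated largely from other genes.

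eEF1A, made from EEF1A1 or its paralog EEF1A2, brings each aminoacyl-tRNA to the ribosome as a GTP-bound complex. The eEF1B complex, with the subunits EEF1B2, EEF1D and EEF1G, recharges eEF1A with GTP, and eEF2 then moves the ribosome along by 1 codon. eIF5A, first named as an initiation factor, helps the ribosome form difficult peptide bonds and carries the modified amino acid hypusine. eEF2 kinase, the product of EEF2K, phosphorylates eEF2 and so slows elongation. It is activated by calcium signals and by AMPK and is restrained by mTORC1 signalling, which makes it a known switch for saving energy when oxygen or nutrients run short. The mRNAs of most elongation factors belong to the TOP class, which begin with a C followed by a run of pyrimidines and whose translation depends on mTORC1.

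The first bases of the mRNA are shown because they are what places an mRNA in the TOP class. RefSeq start windows (GRCh38.p14) were matched for 6 of the 8 genes. The starts of EEF1A2 and EEF1D were not analysed here. Each line gives 10 bases before and 20 bases from the annotated start, 5′ to 3′ on the strand of the gene, and capitals mark a run of pyrimidines that begins with C at the start itself.
EEF2, chr19:3985444-3985473, minus strand: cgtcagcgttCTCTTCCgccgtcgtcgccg
EEF1A1, chr6:73521013-73521042, minus strand: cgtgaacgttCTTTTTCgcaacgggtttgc
EEF1B2, second of 2 annotated starts, chr2:206159885-206159914, plus strand: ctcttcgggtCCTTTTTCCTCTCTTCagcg
EEF1G, chr11:62573872-62573901, minus strand: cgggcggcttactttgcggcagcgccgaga
EEF2K, chr16:22206268-22206297, plus strand: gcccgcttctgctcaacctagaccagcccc
EEF2 and EEF1A1 each began with a run of 7 pyrimidines and the second start of EEF1B2 with a run of 16. A start with C followed by at least 4 pyrimidines was found in 4.07% of 35116 RefSeq windows. Counted by gene, 631 of the 7960 genes with a window that were tested for hypoxia had at least 1 such start. So did 47 of the 63 ribosomal protein genes with an entry, the classic TOP class. None of the single starts of EEF1G and EEF2K, the other start of EEF1B2 or the 6 annotated starts of EIF5A had such a run, which says only that these letters do not begin at these annotated positions. The core of the hypoxia response element, ACGTG or GCGTG on either strand (the palindrome CACGTG counts on both), occurred at least once in the 300-base window around the start (250 bases before, 50 after) of EEF2, EEF1A1, EEF1G and EEF2K and of 1 of the 2 starts of EEF1B2 and 4 of the 6 of EIF5A. It occurred in 48.4% of all windows.

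By the size of 1 step in the values, each RPKM was worth 21.7 to 33.5 reads (or read pairs) on 1 kilobase. This covers counting error only. The lowest value of any of the 8 genes, 1.83 RPKM for EEF2K in normoxic T47D, stood for 44.2 reads per kilobase. The markers followed the labels: ERBB2 stood at 615 and 743 RPKM in SKBR3 and at most at 8.76 RPKM elsewhere, ESR1 and PGR were above 1 RPKM in T47D alone, and AXL stood at 113 and 121 RPKM in SUM1315 and below 1 RPKM elsewhere. EPCAM and KRT8 were near 0 in SUM1315. Of the leukocyte and stromal markers, PTPRC, CD14 and PECAM1 were at most 0.145 RPKM in any library, and COL1A1 was high in SUM1315 alone (91.7 and 119 RPKM).

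EIF5A, EEF1G, EEF2 and EEF1A1 were among the most abundant mRNAs on polysomes, and EEF2K was on average the scarcest of the 8. Averaged over the 6 libraries, on the RPKM scale that corrects for length, the levels ran from EIF5A (757 RPKM) through EEF1G (415), EEF2 (324), EEF1A1 (258), EEF1B2 (135), EEF1D (35.8) and EEF1A2 (16.7) to EEF2K (3.88). EIF5A ranked 16th to 64th among all genes of a library and EEF1G 47th to 136th. EEF2 ranked 32nd to 533rd and EEF1A1 62nd to 478th, each furthest down in normoxic T47D. EEF2K ranked 4319th to 8131st. The lowest EIF5A value (564 RPKM) was just above the highest of EEF1G (557 RPKM), while the ranges of EEF1G, EEF2, EEF1A1 and EEF1B2 overlapped from 1 to the next. EEF1D, at 29.3 to 40.3 RPKM, lay below EEF1B2 in every library. EEF1A2 lay above EEF1D in hypoxic T47D alone and below EEF2K in both SKBR3 libraries. Together the 8 genes took 0.898% of the RPKM sum in SUM1315 at normoxia and 1.12% at hypoxia, 0.581% and 0.652% in SKBR3, and 0.460% and 0.614% in T47D.

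**Figure D1:**
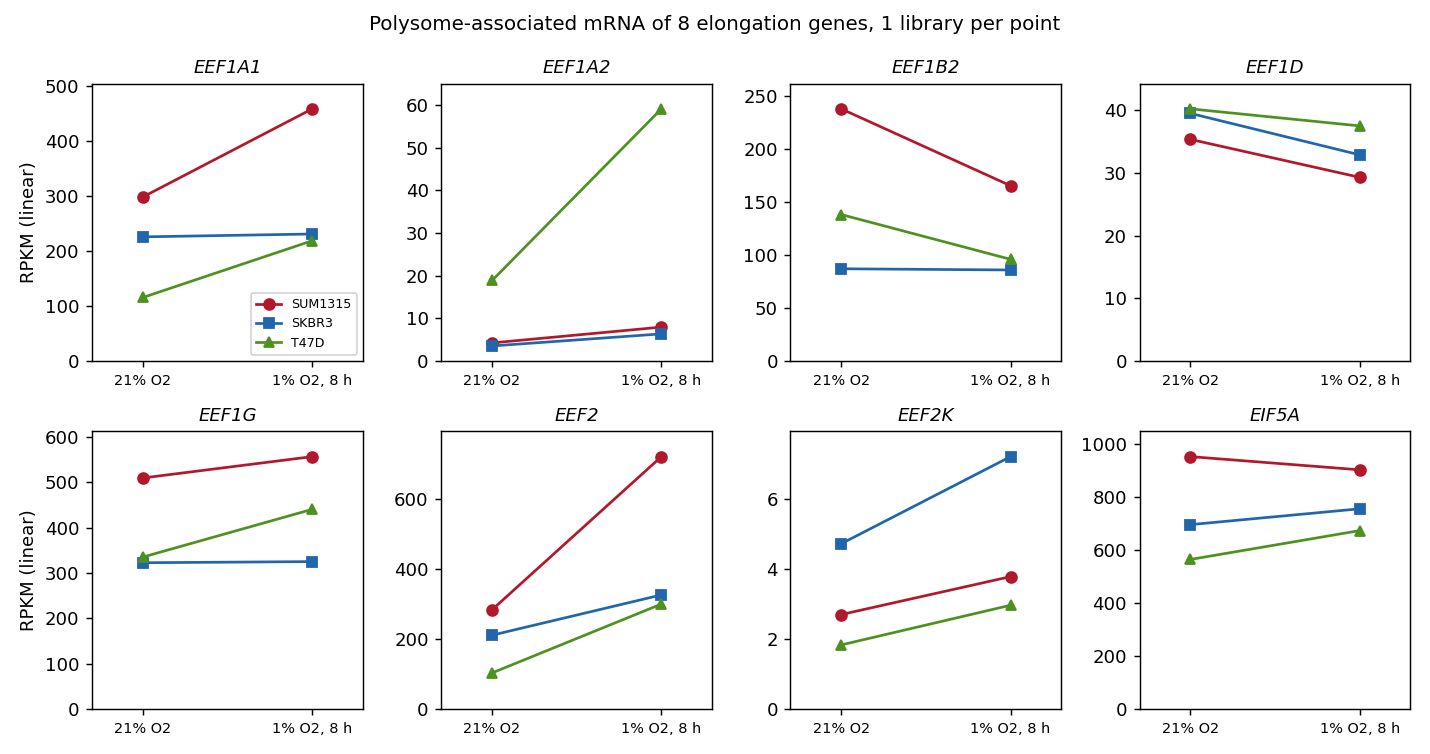
RPKM (linear axes from 0, 1 per gene) of the 8 genes at 21% oxygen and after 8 hours at 1% oxygen. Each point is 1 library and each line joins the libraries of 1 cell line. EEF2 goes up in all 3 lines, from 284, 211 and 103 RPKM to 722, 326 and 300.0 RPKM, and EEF1A2 is highest in T47D.

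Hypoxia raised the polysome-associated mRNAs of EEF2 and EEF1A2, while the other 6 genes did not pass the test. All 8 genes passed the expression filter. With limma (cell line as a block, adjusted p under 0.05) 2 of the 8 were called, both higher, against 6.38% of the 10253 genes tested (4.12% higher and 2.26% lower). The log2 ratio was above 0 in all 3 lines for 5 genes (EEF2, EEF1A2, EEF1A1, EEF2K and EEF1G; 23.5% of all genes), below 0 in all 3 for EEF1B2 and EEF1D (25.2% of all genes), and mixed for EIF5A. The median log2 fold change was 0.32 over the 8 genes and -0.01 over all genes tested.

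EEF2 encodes the translocase and had the largest rise of the 8. At normoxia it stood at 284 RPKM in SUM1315, 211 RPKM in SKBR3 and 103 RPKM in T47D, and at hypoxia at 722, 326 and 300.0 RPKM. Every hypoxic value was above every normoxic one, and the rise was smallest in SKBR3. Among the 8, EEF2 alone separated in this way, as 2.16% of all genes tested did, and none separated downward (1.8% of all genes). The log2 fold change was 1.17 ± 0.19 (SE, n = 3 lines, 95% interval 0.74 to 1.59, limma adjusted p = 0.0102), the 71st largest of 10253. Its rank among all genes of a library improved from 138 to 32 (SUM1315), 220 to 105 (SKBR3) and 533 to 161 (T47D). The call held without each line in turn (adjusted p 0.00331 to 0.0261). These fits have 2 lines each and rest largely on other genes. Without SUM1315 the estimate was smaller and its SE larger (1.08 ± 0.26), yet the adjusted p was the lowest (0.00331). A lower p is therefore not a firmer result here. It was not made without the expression filter (adjusted p = 0.416) or without the block for cell line (adjusted p = 1), settings under which no gene passed. The EEF2 gene lies on chromosome 19 at 3976056 to 3985463 (GRCh38.p14).

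EEF1A1 and EEF1A2 encode near-identical eEF1A proteins. EEF1A2 is the form normally found in muscle and neurons, and its expression in breast tumours has been described. EEF1A2 stood at 4.27 RPKM (normoxia) and 7.97 RPKM (hypoxia) in SUM1315, 3.55 and 6.38 RPKM in SKBR3, and 18.9 and 59.1 RPKM in T47D. It was higher at hypoxia in every line, but the groups overlapped because both T47D libraries lay above all others. The log2 fold change was 1.02 ± 0.19 (SE, n = 3 lines, limma adjusted p = 0.0160), with log2 ratios of 0.77, 0.70 and 1.59 in SUM1315, SKBR3 and T47D. Without T47D it was 0.73 and no longer called (adjusted p = 0.0571), and with a pseudocount of 5 it was 0.77 (adjusted p = 0.0639). The EEF1A2 values stood for 92.6 to 1313 reads per kilobase. Like that of EEF2, the call was not made without the expression filter (adjusted p = 0.434) or the block (adjusted p = 1).

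EEF1A1 was measured at 298, 226 and 116 RPKM in normoxic and 458, 231 and 219 RPKM in hypoxic SUM1315, SKBR3 and T47D. Its value was higher at hypoxia in SUM1315 and T47D and nearly level in SKBR3. The log2 fold change of 0.52 ± 0.19 did not pass (SE, n = 3 lines, limma adjusted p = 0.117). Without SKBR3 it was 0.77 (adjusted p = 0.0497). Reads of EEF1A1 can also match its processed pseudogenes, so its value is uncertain. The RPKM of its 16 named pseudogenes was 2.17% to 4.14% of the sum over gene and pseudogenes, most of it in EEF1A1P5 (2.34 to 9.29 RPKM). EEF1A1 lies on chromosome 6 at 73515750 to 73521032 and EEF1A2 on chromosome 20 at 63488014 to 63499083.

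None of the 3 subunits of the exchange complex passed the test. EEF1B2, the catalytic subunit that all eEF1B complexes share, stood at 238 RPKM (normoxia) and 166 RPKM (hypoxia) in SUM1315, 87.2 and 86.1 RPKM in SKBR3, and 138 and 96.1 RPKM in T47D. Its values were lower at hypoxia in SUM1315 and T47D and level in SKBR3, and the log2 fold change was -0.35 ± 0.17 (SE, n = 3 lines, limma adjusted p = 0.206). EEF1D, the second exchange subunit, was measured at 35.4, 39.5 and 40.3 RPKM in normoxic and 29.3, 32.9 and 37.5 RPKM in hypoxic SUM1315, SKBR3 and T47D. Its log2 fold change was -0.21 ± 0.15, with a 95% interval of -0.53 to 0.12 (adjusted p = 0.391). EEF1G, the scaffold subunit, stood at 510 RPKM (normoxia) and 557 RPKM (hypoxia) in SUM1315, 322 and 325 RPKM in SKBR3, and 335 and 440 RPKM in T47D. Its log2 fold change was 0.18 ± 0.15, with a 95% interval of -0.16 to 0.52 (adjusted p = 0.482). These intervals, and that of EEF1B2 (-0.72 to 0.01), lie below the interval of EEF2, but the difference between the genes was not tested. EEF1B2 lies on chromosome 2 at 206159609 to 206162928, EEF1D on chromosome 8 at 143579728 to 143597415 and EEF1G on chromosome 11 at 62559596 to 62573891. EEF1D shares 2934 exonic bases on the opposite strand with AC067930.6, which has no deposited value. It also shares 261 with TIGD5 on the opposite strand (1.94 to 4.88 RPKM). EEF1G shares 2714 with AP002990.1 on the same strand (0.836 to 3.03 RPKM). Whether reads were counted by strand is not stated, so how such reads were divided between the genes is not known.

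EEF2K was measured at 2.70, 4.73 and 1.83 RPKM in normoxic and 3.79, 7.23 and 2.97 RPKM in hypoxic SUM1315, SKBR3 and T47D. The hypoxic value was higher in every line by a like amount, with log2 ratios of 0.37, 0.52 and 0.49, although the groups overlapped because SKBR3 was high at both oxygen levels. The log2 fold change was 0.46 ± 0.12 (SE, n = 3 lines, 95% interval 0.18 to 0.74), which did not pass after adjustment (limma unadjusted p = 0.0042, adjusted p = 0.057). Because the pseudocount of 1 is large beside these levels, that value understates the change. With a pseudocount of 0.1 the log2 fold change was 0.58 (adjusted p = 0.0524). EEF2K lies on chromosome 16 at 22206278 to 22288738. It shares 708 exonic bases with AC009034.1 on the opposite strand, which stood at no more than 0.092 RPKM.

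EIF5A, the most abundant of the 8 in every library, had the fold change nearest to 0. Its level stood at 953 RPKM (normoxia) and 903 RPKM (hypoxia) in SUM1315, 696 and 756 RPKM in SKBR3, and 564 and 673 RPKM in T47D. It was slightly lower at hypoxia in SUM1315 and slightly higher in the other 2 lines. The log2 fold change was 0.10 ± 0.15, with a 95% interval of -0.23 to 0.43 (SE, n = 3 lines, limma adjusted p = 0.700). EIF5A lies on chromosome 17 at 7306999 to 7312463. It shares 241 exonic bases with GPS2 on the opposite strand, which stood at 16.0 to 35.3 RPKM.

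**Figure D2:**
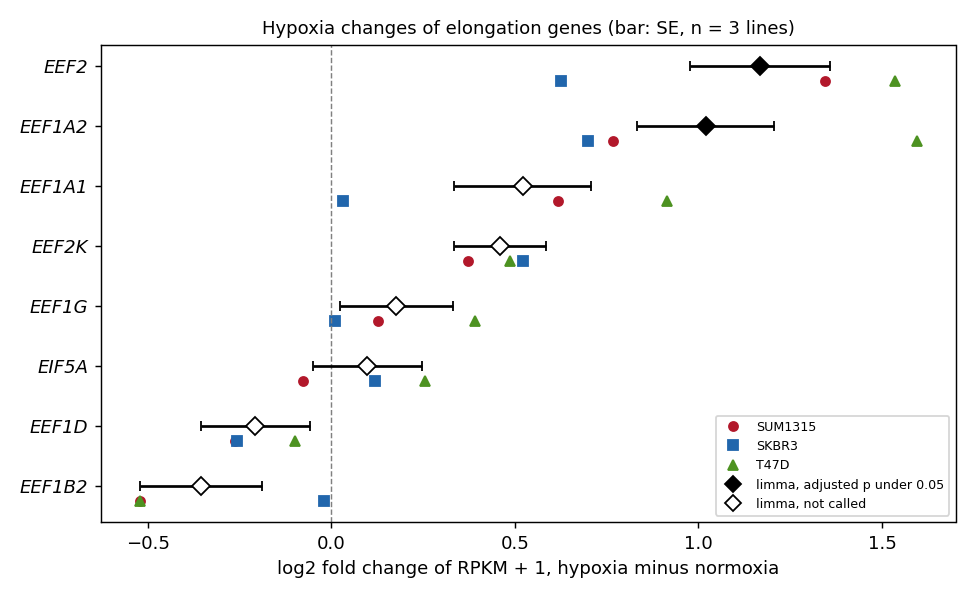
Log2 fold change of RPKM + 1 between hypoxia and normoxia. Diamonds with bars are the limma estimate and its SE over 3 lines, filled where the adjusted p was under 0.05, and coloured symbols are the log2 ratios of single lines. EEF2 and EEF1A2 are called, and EEF1B2 and EEF1D lie below 0.

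Ratios between members within a library do not depend on library size. At normoxia EEF2 and EEF1A1 were nearly equal on the RPKM scale, where EEF2 divided by EEF1A1 gave 0.952 (SUM1315), 0.935 (SKBR3) and 0.891 (T47D). At hypoxia the ratio was 1.58, 1.41 and 1.37, so that EEF2 exceeded EEF1A1 in each line. The EEF1A1 level is uncertain because of its pseudogenes, and this ratio was not recomputed with them. The log2 ratio was higher at hypoxia by 0.65 ± 0.07 (SD, n = 3 lines), with 0.73, 0.60 and 0.62 in SUM1315, SKBR3 and T47D. The spread between lines was thus small beside the difference, although the rise of EEF2 itself ran from 0.63 to 1.53. By an exact sign-flip permutation test over the 3 pairs (two-sided) its p was 0.25, the smallest that 3 pairs allow, and the other 5 measures of this kind, 6 in all, had the same p.

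EEF1A2 made up 1.41% of the EEF1A1 plus EEF1A2 RPKM in normoxic SUM1315 and 1.71% in hypoxic SUM1315. In SKBR3 its share was 1.55% and 2.69%, and in T47D 14.1% and 21.3%. The share was higher at hypoxia in every line, by a mean of 2.89 percentage points ± 3.78 (SD, n = 3 lines) that rests on T47D, since it was 0.721 points without that line. The log2 ratios of the exchange subunits to EEF1A1 were lower at hypoxia in every line, with mean differences of -0.88 ± 0.73 for EEF1B2, -0.74 ± 0.39 for EEF1D and -0.35 ± 0.28 for EEF1G (SD, n = 3 lines). All 3 differed least in SKBR3 (-0.05, -0.30 and -0.02). Within the exchange complex, the EEF1G to EEF1B2 ratio was 2.14 at normoxia and 3.36 at hypoxia in SUM1315, 3.70 and 3.78 in SKBR3, and 2.42 and 4.58 in T47D.

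EEF2 mRNA exceeded that of its kinase by 44.5 to 105 times at normoxia and by 45.1 to 190.0 times at hypoxia. The log2 ratio of EEF2K to EEF2 differed by -0.86 in SUM1315 and -0.85 in T47D, but by -0.02 in SKBR3, where both mRNAs went up by about the same factor (1.53 for EEF2K, 1.55 for EEF2). Its mean difference was -0.57 ± 0.48 (SD, n = 3 lines).

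**Figure D3:**
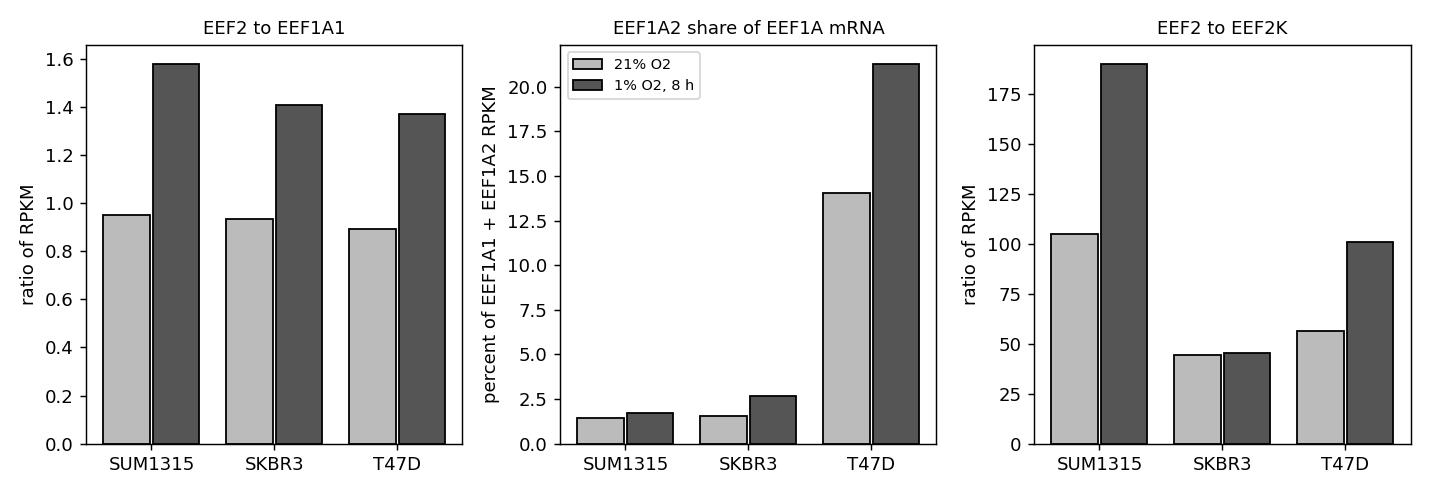
Ratio of EEF2 to EEF1A1 RPKM, EEF1A2 as a percentage of EEF1A1 plus EEF1A2 RPKM, and ratio of EEF2 to EEF2K RPKM, with 1 bar per library (light, 21% oxygen; dark, 8 hours at 1% oxygen) and axes from 0. The EEF2 to EEF1A1 ratio is below 1 in every normoxic and above 1.3 in every hypoxic library, and the EEF1A2 share is highest in T47D.

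The lines differed in some of these genes, as they did in most genes tested. In the same limma fit, with oxygen as covariate and 2 libraries per line, 69.8% of all genes were called between SUM1315 and SKBR3, 69.2% between SUM1315 and T47D and 57.9% between SKBR3 and T47D, and of the 8 members 5, 6 and 2 were called. SUM1315 was higher than SKBR3 in 4 members and lower in 1 (41.8% and 28% of all genes), and higher than T47D in 5 and lower in 1 (39% and 30.2% of all genes). SKBR3 was higher than T47D in 1 member and lower in 1 (26.6% and 31.2% of all genes). The 2 libraries of a line differ in oxygen, so these tests have no replicate within a condition. The largest difference was in EEF1A2, with mean levels of 6.12 RPKM in SUM1315, 4.97 RPKM in SKBR3 and 39.0 RPKM in T47D. Its log2 difference from T47D was -2.33 ± 0.23 in SUM1315 (adjusted p = 1.06e-05) and -2.58 ± 0.23 in SKBR3 (adjusted p = 9.75e-06). EEF1A2 in SUM1315 and SKBR3 did not differ beyond their spread (0.25 ± 0.23, adjusted p = 0.355). EEF2K was highest in SKBR3, at a mean of 5.98 RPKM against 3.25 RPKM in SUM1315 and 2.40 RPKM in T47D. The log2 difference was -0.71 ± 0.15 for SUM1315 minus SKBR3 (adjusted p = 0.00203) and 1.03 ± 0.15 for SKBR3 minus T47D (adjusted p = 0.000271), and its levels in SUM1315 and T47D were not separated (0.33 ± 0.15, adjusted p = 0.0786).

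SUM1315 stood highest for EEF1A1, EEF1B2, EEF1G, EEF2 and EIF5A. Its log2 level exceeded that of T47D by 1.36 ± 0.23 in EEF2 (adjusted p = 0.000481) and by 1.21 ± 0.23 in EEF1A1 (adjusted p = 0.000866), and that of SKBR3 by 1.19 ± 0.20 in EEF1B2 (adjusted p = 0.000442). Over all genes tested the median of the log2 differences per gene was 0.21 for SUM1315 minus SKBR3 and 0.16 for SUM1315 minus T47D. With each library centred on its median, 4 calls between lines were lost: EEF1A1 (adjusted p = 0.083) and EEF2 (0.0509) for SUM1315 over SKBR3, and EEF1G (0.225) and EIF5A (0.092) for SUM1315 over T47D. EEF1D was then called lower in SUM1315 than in T47D (-0.46, adjusted p = 0.0405). Without oxygen in the model the EEF2 difference between SUM1315 and T47D did not pass (adjusted p = 0.0771), and neither did EEF1G between them (0.0986) or EEF1A1 (0.117) and EEF2 (0.273) between SUM1315 and SKBR3. No difference between SKBR3 and T47D passed for EEF1A1, EEF1B2, EEF1D, EEF1G, EEF2 or EIF5A.

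The enzymes and partners around the elongation factors were examined in 7 lists of 54 genes, 49 of them tested. Of the 49, 1 was higher, 5 were lower and 43 did not pass, against 4.12% and 2.26% over all genes, and the median log2 fold change was -0.04. None of the 6 calls held without T47D (adjusted p 0.077 to 0.196; over all genes the calls went from 654 to 232), and of them EEF2KMT alone held with a pseudocount of 5. The list medians were -0.41 for diphthamide synthesis, -0.38 for hypusination and eIF5A paralogs, -0.33 for release factors, -0.11 for mitochondrial factors, 0.06 for methyltransferases and 0.14 for the eEF1 partners. That of the genes signalling to eEF2 kinase was -0.005.

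Among the methyltransferases, which modify lysines or the first residue of the factors, 1 of 6 rose and 1 fell. EEF1AKMT3, which methylates eEF1A, was measured at 5.75, 3.53 and 5.17 RPKM in normoxic and 8.07, 6.24 and 10.2 RPKM in hypoxic SUM1315, SKBR3 and T47D. It rose by 0.66 ± 0.14 on the log2 scale (limma adjusted p = 0.0275), a call that was lost without SKBR3 too (adjusted p = 0.0525). EEF2KMT, which methylates eEF2, stood at 23.3 RPKM (normoxia) and 14.05 RPKM (hypoxia) in SUM1315, 9.89 and 5.94 RPKM in SKBR3, and 15.8 and 9.39 RPKM in T47D. Its log2 fold change was -0.68 ± 0.14 (limma adjusted p = 0.0222), with log2 ratios of -0.69, -0.65 and -0.69. EEF2KMT belongs to the FAM86 family of near-copies, so the division of its reads is uncertain.

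Of 6 tested genes for diphthamide, the modified histidine of eEF2 that diphtheria toxin attacks, DPH2 fell and none rose. DPH2, part of the enzyme that begins the modification, was measured at 36.3, 23.9 and 13.3 RPKM in normoxic and 22.6, 14.6 and 9.72 RPKM in hypoxic SUM1315, SKBR3 and T47D. Its log2 fold change was -0.59 ± 0.15 (limma adjusted p = 0.0434), and its call was lost when any 1 line was left out (adjusted p 0.077 to 0.143). Its partner DPH1 (-0.49, adjusted p = 0.0534) and DPH7 (-0.44, adjusted p = 0.0672), which acts later in the pathway, had values below 0 in all 3 lines. So did DPH3 (-0.37, adjusted p = 0.118), while DPH5 (-0.10, adjusted p = 0.686) had values of both signs. DPH6 was below the filter and DNAJC24 had 0.05.

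Hypusine synthesis showed no call. The hypusine enzymes DHPS and DOHH had log2 fold changes of -0.28 ± 0.17 and -0.38 ± 0.15, and the eIF5A paralog EIF5A2 -0.44 ± 0.18 (limma adjusted p 0.326, 0.160 and 0.165; 2 of 3 had an unadjusted p under 0.05). EIF5A2 went from 4.40 to 1.59 RPKM in SKBR3, from 3.98 to 3.74 RPKM in SUM1315 and from 3.37 to 2.80 RPKM in T47D. Without SUM1315 it was called, at -0.63 (adjusted p = 0.026). EIF5AL1, a near copy of EIF5A, stood at 0.0389 to 0.668 RPKM and was not tested.

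None of the 9 eEF1 partners, selenocysteine and rescue factors passed with limma (5 had an unadjusted p under 0.05). Valyl-tRNA synthetase, VARS1, which binds the eEF1 complex, was highest at 0.44 ± 0.16 (adjusted p = 0.131), with log2 ratios of 0.01, 0.72 and 0.59 in SUM1315, SKBR3 and T47D. It was called without SUM1315 (0.65, adjusted p = 0.0276). EEF1E1, a small eEF1-like protein of the tRNA synthetase complex, was lowest at -0.52 ± 0.15 (adjusted p = 0.0691). None of the 5 mitochondrial elongation factors passed either (2 had an unadjusted p under 0.05), with the translocase GFM1 highest (0.27 ± 0.11, adjusted p = 0.152) and the exchange factor TSFM lowest (-0.48 ± 0.18, adjusted p = 0.134). TSFM was called without SKBR3 (-0.73, adjusted p = 0.0384).

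Of the release factors tested, ETF1, which recognises all stop codons, fell and GSPT1, its GTPase partner, did not pass (0.08). ETF1 stood at 75.0 RPKM (normoxia) and 45.9 RPKM (hypoxia) in SUM1315, 24.9 and 18.3 RPKM in SKBR3, and 36.4 and 16.4 RPKM in T47D. Its log2 fold change was -0.74 ± 0.17 (limma adjusted p = 0.0334).

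Of 18 tested genes that signal to eEF2 kinase or act on eEF2 phosphorylation, 2 fell and none rose. PPP2CA, a catalytic subunit of the phosphatase PP2A, which removes phosphate from eEF2, was measured at 71.2, 10.9 and 41.9 RPKM in normoxic and 47.1, 7.34 and 18 RPKM in hypoxic SUM1315, SKBR3 and T47D. Its log2 fold change was -0.76 ± 0.17 (limma adjusted p = 0.0313), while the other catalytic subunit, PPP2CB, had -0.02. RPS6KA1, a kinase of the ERK pathway that phosphorylates and inhibits eEF2 kinase, had -0.55 ± 0.13 (limma adjusted p = 0.0369), with log2 ratios of -0.42, -0.56 and -0.69, and its call was lost without SKBR3 as well (adjusted p = 0.0609). The mTORC1 genes MTOR (0.05) and RPTOR (0.48, adjusted p = 0.0801), the AMPK catalytic subunit PRKAA1 (0.14) and the S6 kinases RPS6KB1 (-0.42, adjusted p = 0.0866) and RPS6KB2 (0.59, adjusted p = 0.110) did not pass. RPS6KB2 had the highest value of the list, with log2 ratios of 0.28, 0.21 and 1.27 in SUM1315, SKBR3 and T47D. PRKAA2 and PRKAG2 were below the filter.

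**Figure D4:**
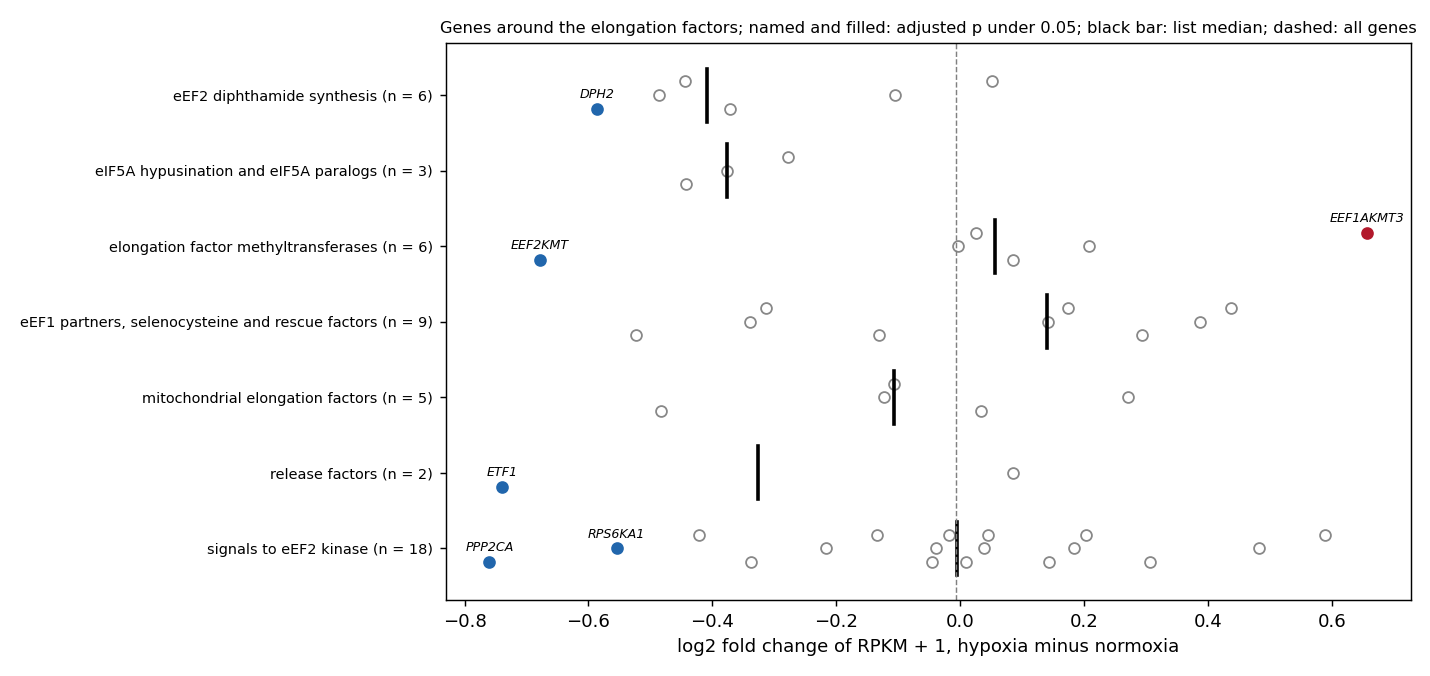
Log2 fold change of RPKM + 1 (hypoxia minus normoxia) of the 49 tested genes in 7 lists around the elongation factors. Each circle is 1 gene, filled and named where the limma adjusted p was under 0.05 (red higher, blue lower), the black bar is the list median and the dashed line the median of all genes. EEF1AKMT3 is the single call above 0 and 5 calls lie below.

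EEF2, EEF1A1 and EEF1B2 share the TOP start shown above with many ribosomal protein mRNAs. The fold changes of EEF2 and EEF1A1 were opposite in sign to the ribosomal protein median, and that of EEF1A1 did not pass. Of 79 ribosomal protein genes 31 were lower and none higher, with a median log2 fold change of -0.56. Called or not, 75 of them had a fold change below 0 and 4 above 0. Of the 3 members with a TOP start, EEF2 was called higher (1.17), and EEF1A1 (0.52, adjusted p = 0.117) and EEF1B2 (-0.35, adjusted p = 0.206) did not pass. The difference between these genes and the ribosomal protein genes was not tested. Of 47 tested ribosomal protein genes with such a start, 20 were lower and none higher. Of 581 other tested genes with one, members left out, 39 were higher and 5 lower, which is 6.71% and 0.861%, against 3.99% and 2.39% of the 7960 tested genes with a RefSeq window. The median log2 fold change of those 581 was 0.02. These counts describe annotated starts, and no list was tested.

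The genes whose levels over the 6 libraries were most like those of EEF2 (Pearson's r of log2(RPKM + 1), given as a description) were ZC3H7A (0.996), FBXO41 (0.991), C2orf81 (0.990), NR1D1 (0.987) and LRRC23 (0.984). Their own levels were far lower, at 0.756 to 5.44 RPKM. For EEF2K they were DENND5A (0.997), SH2B2 (0.995), EMC9 (0.988), GARRE1 (0.988) and MIDEAS (0.987), all highest in hypoxic SKBR3. For EEF1A2 they were PSMG4 (0.998), PCED1A (0.995), ELF4 (0.993), DNPH1 (0.989) and C11orf71 (0.987), all highest in hypoxic T47D. With 6 libraries and 10253 genes, r values of this size come with the ranking.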

How the data were processed

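Polysome-associated RNA of 6 libraries (3 cell lines, each at normoxia and hypoxia) was analysed from 1 table of RPKM values made and deposited by the authors. The table names no unit. It was read as RPKM from its values: for low genes of 1 transcript (GENCODE release 29), 61.9% to 65.7% of the products of value and length were whole multiples of 1 step, within 0.02 of it. Per the submitters' processing notes, the tools included Partek, SAMtools, HISAT2 and Trimmomatic, and the build was GRCh38 (hg38). No source used here gives the annotation, the counting rule or the strand setting.

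The 10253 genes that reached 1 RPKM in 3 or more libraries were tested with limma 3.58.1 in R 4.3.3 on log2(RPKM + 1): a block for cell line, variance trend by expression, two-sided, Benjamini-Hochberg adjusted p under 0.05 over all genes. Residual degrees of freedom were 2 and prior ones 8.02, so an SE rests largely on other genes. The lines are the labels' own pairing: deviations of a line's 2 libraries correlated at 0.936 to 0.969. The fit was tested on simulated data. Differences between lines used the same fit, with oxygen as covariate. Named were the 8 members, list genes that passed or else the highest and lowest of a list, and the 5 genes most like EEF2, EEF2K and EEF1A2. Other list genes were named after their values were seen. The members and lists were chosen with earlier results of these data known. The alternatives were other pseudocounts, scalings and filters, no block, and each line left out. Leaving out lines for list genes was added after the data were seen.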

Additional observations from a re-analysis of the deposited data

Results flagged for a closer look

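Log2 ratios of both signs over the 3 lines were common: they were found in 24 of the 49 tested list genes. The share over all genes tested was 51.3%, which also counts genes with a ratio of exactly 0 in some line. Among the 8 members and the list genes named by rule, EIF5A and TSFM had ratios of both signs. The difference between lines was not tested, because each line has 1 library per oxygen level. For EIF5A the log2 ratio was -0.078 in SUM1315, 0.119 in SKBR3 and 0.254 in T47D. For TSFM, the exchange factor of mitochondrial elongation, it was -0.567 in SUM1315, 0.014 in SKBR3, which is close to 0, and -0.897 in T47D.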

How the results depend on the processing

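The log2 fold changes of the 8 members kept their sign under all 10 alternatives, from 0.985 to 1.439 for EEF2, 0.733 to 1.181 for EEF1A2 and 0.247 to 0.580 for EEF2K. EEF2 was called under 8 of the 10 and EEF1A2 under 6. Over all genes 654 were called (422 higher, 232 lower). With a pseudocount of 5 the calls were 243 (171 higher, 72 lower) over all genes, 1 member (EEF2), 1 methyltransferase (EEF2KMT), and with limma 0 each in the diphthamide, release factor and eEF2 kinase signal lists, where 4, 1 and 5 genes had an unadjusted p under 0.05. Without the expression filter limma called 0 genes and 0 members (2715 genes and 3 members at an unadjusted p under 0.05). With no replicate block it called 0 and 0 (68 and 0). The cause was not tested. With each line left out the calls ran from 232 (without T47D) to 823 over all genes and from 1 to 3 among the members. The median log2 fold change of all genes stayed between -0.03 and 0.02 under all scalings and filters. Depth limits EEF2K most, at 44.2 to 200 reads per kilobase.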
